A study of Mus musculus with 65 samples.

Results

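Tmc3, Dll3 and Igf2bp3 are 3 of the 49670 genes in the deposited count table, and they were selected on higher counts in knockin than in wild type medulla or pons. They were thus chosen by the measured differences between vehicle-treated knockin and wild type brainstem. Those differences are described below without a test. Values of the cerebellum did not enter the choice and were tested. Most vehicle knockin libraries of cerebellum share a number in the column headers with vehicle knockin libraries of brainstem. The labels do not give the meaning of that number, so the cerebellum may not be an independent check. The effect of the oligonucleotide and the differences between wild type tissues were tested too, but they use vehicle knockin or wild type brainstem libraries that served in the choice.

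RNA was profiled by sequencing in 65 libraries from C57BL/6J mice in 15 groups. The groups were wild type mice given vehicle, Atxn1[82Q] knockin mice given vehicle, and Atxn1[82Q] knockin mice given an antisense oligonucleotide (ASO) against Atxn1, each in cerebellum, medulla and pons at 18 weeks and in medulla and pons at 28 weeks. Each group held 4 libraries in cerebellum, 3 in medulla and in pons at 18 weeks, and 4 in pons at 28 weeks. Medulla at 28 weeks held 8 wild type, 8 vehicle knockin and 7 ASO libraries, in 2 labelled batches. The labels do not say whether the knockin mice carried the allele on both chromosomes, how the ASO was given, or whether each library is a separate animal, so the p-values measure the spread between these libraries. Total counts per library ran from 49171833 to 119135115, with a median of 77043983.

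ATXN1 with an expanded polyglutamine tract causes spinocerebellar ataxia type 1, a disease of the cerebellum and brainstem. The protein acts in the nucleus with the transcriptional repressor Capicua, and an ASO against its messenger RNA lowers that RNA by directing its cleavage. Tmc3 encodes a transmembrane channel-like protein of the family whose members Tmc1 and Tmc2 form the mechanically gated channel of inner ear hair cells. Dll3 encodes a divergent Notch ligand that stays largely inside the cell, where it dampens Notch signalling, and that is known from somite formation and from neuroendocrine tumours. Igf2bp3 encodes an RNA-binding protein of the embryo that binds Igf2 and other messenger RNAs, reads N6-methyladenosine (m6A) and is shut off in most adult tissues, from which comes its description as oncofetal.

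In the GENCODE annotation of GRCm38, Tmc3 (ENSMUSG00000038540) lies at chr7:83584927-83625614 on the plus strand. Its exons cover 9027 bases, of which 3961 overlap exons of the antisense gene Gm16638. Dll3 (ENSMUSG00000003436) lies on the same chromosome at chr7:28293553-28302238 on the minus strand, covers 2850 exon bases and overlaps no other gene. Igf2bp3 (ENSMUSG00000029814) lies at chr6:49085223-49214957 on the minus strand, covers 8159 exon bases and shares exon bases with Malsu1, a mitochondrial ribosome assembly factor on the other strand. The library kit marked strand, but no source used here says whether the counting used it, so reads of overlapping genes may not have been separated. Malsu1 stood between 9.62 and 19.4 CPM, the count scaled to a common library size, in all 65 libraries, and 0 of its 10 differences between groups were called. Gm16638 stood between 11.6 and 22.5 CPM. It was called in 2 of 10 comparisons, both times lower in knockin at 28 weeks, by 0.16 on the log2 scale in medulla and by 0.20 in pons, which is opposite in direction to Tmc3 there.

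The sequences directly before the starts of Tmc3 and Igf2bp3 are shown because both genes were high in the same knockin brainstem groups. They come from RefSeq on GRCm38.p6, read 5′ to 3′ on the gene's own strand, and end where the first GENCODE exon begins. The Tmc3 stretch is chr7:83584681-83584926 on the plus strand and the Igf2bp3 stretch is chr6:49214958-49215204 on the minus strand. All 3 genes matched the RefSeq table, but the 250 bases before the RefSeq start of Dll3 lie wholly inside a GENCODE exon and are not printed.
Tmc3: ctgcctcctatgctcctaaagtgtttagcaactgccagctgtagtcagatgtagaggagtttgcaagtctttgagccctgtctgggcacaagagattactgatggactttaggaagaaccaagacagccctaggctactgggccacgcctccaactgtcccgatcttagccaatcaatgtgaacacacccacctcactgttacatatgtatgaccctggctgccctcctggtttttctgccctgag
Igf2bp3: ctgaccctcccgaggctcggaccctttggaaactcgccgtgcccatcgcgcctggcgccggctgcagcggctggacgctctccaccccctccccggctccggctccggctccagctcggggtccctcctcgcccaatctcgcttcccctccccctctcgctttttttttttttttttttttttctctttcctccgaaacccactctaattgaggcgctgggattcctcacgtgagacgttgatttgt

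No base is in capitals because none of the motifs searched occurred in either stretch. The motifs were the Capicua octamers TGAATGAA, TGAATGGA, TCAATGAA and TCAATGGA, the core TGGGAA bound by the Notch effector RBPJ, the E box CAGGTG and the nuclear receptor core site AGGTCA. Each was searched on both strands in the 250 bases before the RefSeq start, and none of them contains another. In the Dll3 window the E box was found once, on the reverse strand 228 bases before the start. The E box occurs in 17.2% of 32851 such windows, TGGGAA in 21.6%, AGGTCA in 14% and at least 1 Capicua octamer in 3.19%. The 250-base window of Igf2bp3 held 60.4% G and C, that of Tmc3 51.2% and that of Dll3 52%, beside a median of 52.4% over all windows.

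The labels were checked first with Atxn1, whose RNA the ASO targets. At 28 weeks its level in vehicle knockin and wild type libraries did not overlap, with 40.0 to 47.7 against 30.3 to 38.6 CPM in medulla and from 45.2 to 60.9 against 39.2 to 42.7 CPM in pons. Among the 18-week libraries labelled wild type, Atxn1 stood at 34.8, 32.7 and 15.1 CPM in medulla and, in the same order of replicates, at 51.0, 33.2 and 16.5 in pons. The third replicate is at the level of ASO libraries, and the pons value of replicate 1 is above all 3 vehicle knockin libraries, whose highest was 49.3. In ASO replicate 2 the Atxn1 level was 38.4 CPM (medulla) and 50.9 CPM (pons) at 18 weeks, and 49.3 and 52.4 CPM at 28 weeks, while the other ASO libraries of brainstem lay between 13.3 and 36.8 CPM. The medulla and pons libraries of each such pair share a number in the column headers, whose meaning the labels do not give. All libraries stay under their labels, and values without some of those in doubt stand beside part of the results. No fit left out all those in doubt at 18 weeks together.

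In batch 2 of medulla at 28 weeks, 4 libraries, namely wild type replicate 5, vehicle knockin replicate 8 and ASO replicates 6 and 7, were low in the Hox genes that mark hindbrain and spinal cord position, with a summed level of 32.2 to 40.8 CPM where the other medulla libraries of that age held 121 to 425. Results in medulla at 28 weeks that change without them are given below.

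Tmc3 was higher in vehicle knockin than in wild type brainstem by similar amounts in both regions at 28 weeks. In medulla at 28 weeks, Tmc3 ranged from 2.75 to 3.85 CPM in wild type libraries with a median of 3.15. The 8 vehicle knockin libraries ranged from 5.3 to 8.79 CPM with a median of 7.97, so every knockin library lay above every wild type one. The difference was 1.22 ± 0.17 on the log2 scale (edgeR estimate and SE), or 2.33-fold, and it was 0.90 in batch 1 and 1.52 in batch 2.

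In pons at 28 weeks, the 4 wild type libraries held 2.6, 4.05, 4.58 and 2.79 CPM of Tmc3 in replicate order. The 4 vehicle knockin libraries held 7.5, 5.77, 7.19 and 8.54 CPM. The groups did not overlap there either, and the knockin mean was 2.07-fold higher (log2 difference 1.05 ± 0.28).

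At 18 weeks the vehicle knockin libraries held Tmc3 levels within or close to the range of 28 weeks, with 5.43, 6.49 and 6.19 CPM for the medulla samples and 7.25, 7.25 and 7.6 CPM for those of pons. Under the wild type label, Tmc3 stood at 6.46, 2.73 and 2.95 CPM in the medulla libraries and at 6.2, 2.44 and 3.24 CPM in those of pons. In both regions replicate 1 was well above the other wild type libraries, and in medulla it lay within the knockin range, while in pons it was below all knockin libraries. On the log2 scale the difference was 0.58 ± 0.44 in medulla and 0.90 ± 0.37 in pons. Without wild type replicate 1 it was 1.09 in medulla and 1.37 in pons, close to or above the values at 28 weeks. Without the libraries labelled wild type replicate 3 and ASO replicate 2 it was 0.39 and 0.77.

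Dll3 differed by region and age. In medulla at 28 weeks, it ranged from 1.79 to 2.35 CPM in wild type libraries with a median of 1.96, and from 2.18 to 3.62 CPM in vehicle knockin libraries with a median of 2.90. These ranges overlapped, with 2 knockin libraries below the highest wild type library. The log2 difference was 0.51 ± 0.11, or 1.43-fold, with 0.31 in batch 1 and 0.70 in batch 2.

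Pons gave the larger difference for Dll3. The 4 wild type libraries of pons at 28 weeks held 2.15, 1.45, 2.01 and 1.99 CPM, and the 4 vehicle knockin libraries held 3.87, 4.52, 3.95 and 3.36 CPM. All knockin libraries lay above all wild type libraries, by 2.06-fold between the groups (log2 difference 1.05 ± 0.17).

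At 18 weeks the sign of the Dll3 difference was not the same in both regions. Medulla libraries labelled wild type held 1.94, 1.9 and 1.54 CPM, and vehicle knockin libraries held 2.55, 2.17 and 2.2 CPM, which do not overlap (log2 difference 0.37 ± 0.24). Pons libraries labelled wild type held 3.15, 1.5 and 1.8 CPM, and vehicle knockin libraries held 1.88, 1.1 and 1.82 CPM. The difference in pons had the opposite sign, -0.42 ± 0.36, and was -0.04 without wild type replicate 1, whose 3.15 CPM was the highest value of that group. Without the libraries labelled wild type replicate 3 and ASO replicate 2 it was 0.26 in medulla and -0.54 in pons.

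Igf2bp3 was close to undetected in wild type brainstem. The 8 wild type medulla libraries at 28 weeks held 10 counts in all and at most 4 in a library, and 4 of them held 0. Their highest level was 0.042 CPM, while the 8 vehicle knockin libraries ranged from 0.373 to 1.23 CPM with a median of 1.01 and held 31 to 108 counts each. In pons at 28 weeks, the wild type libraries held 0.0249, 0.0519, 0 and 0 CPM and the vehicle knockin libraries 0.92, 1.22, 1.49 and 1.13 CPM.

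Neither region had any overlap between the groups in Igf2bp3. The fitted difference was 5.82 ± 0.53 on the log2 scale in medulla and 5.81 ± 0.69 in pons, about 56.6-fold and 56.1-fold. Its size rests on a few wild type counts, and without the pons library wild type replicate 2, which held 4 of the 6 wild type counts, it was 6.83 there. Of the Igf2bp3 counts in the 53 libraries above 0, 73.6% were even, so each fragment may have added more than 1 count and the fragments may be fewer than the counts. This is not particular to Igf2bp3. Over all genes, 70.0% to 78.6% of the counts from 1 to 20 were even in each library.

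The 18-week knockin libraries held far less Igf2bp3 than those at 28 weeks. Vehicle knockin medulla held 0.207, 0.219 and 0.109 CPM and vehicle knockin pons 0.191, 0.169 and 0.239 CPM, all below the lowest vehicle knockin library at 28 weeks in either region. Tmc3 showed no such gap between the ages, and the ages were scaled separately and not tested against each other. Under the wild type label at 18 weeks, Igf2bp3 stood at 0.525, 0 and 0.0655 CPM in the medulla libraries and at 0.249, 0 and 0.0283 CPM in those of pons. Replicate 1 was the highest of all 6 vehicle libraries in each region. The log2 difference was -0.08 ± 0.97 in medulla and 1.09 ± 1.03 in pons with that library, and 2.37 and 3.61 without it. Without the libraries labelled wild type replicate 3 and ASO replicate 2 instead it was -0.50 and 0.66.

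**Figure D1:**
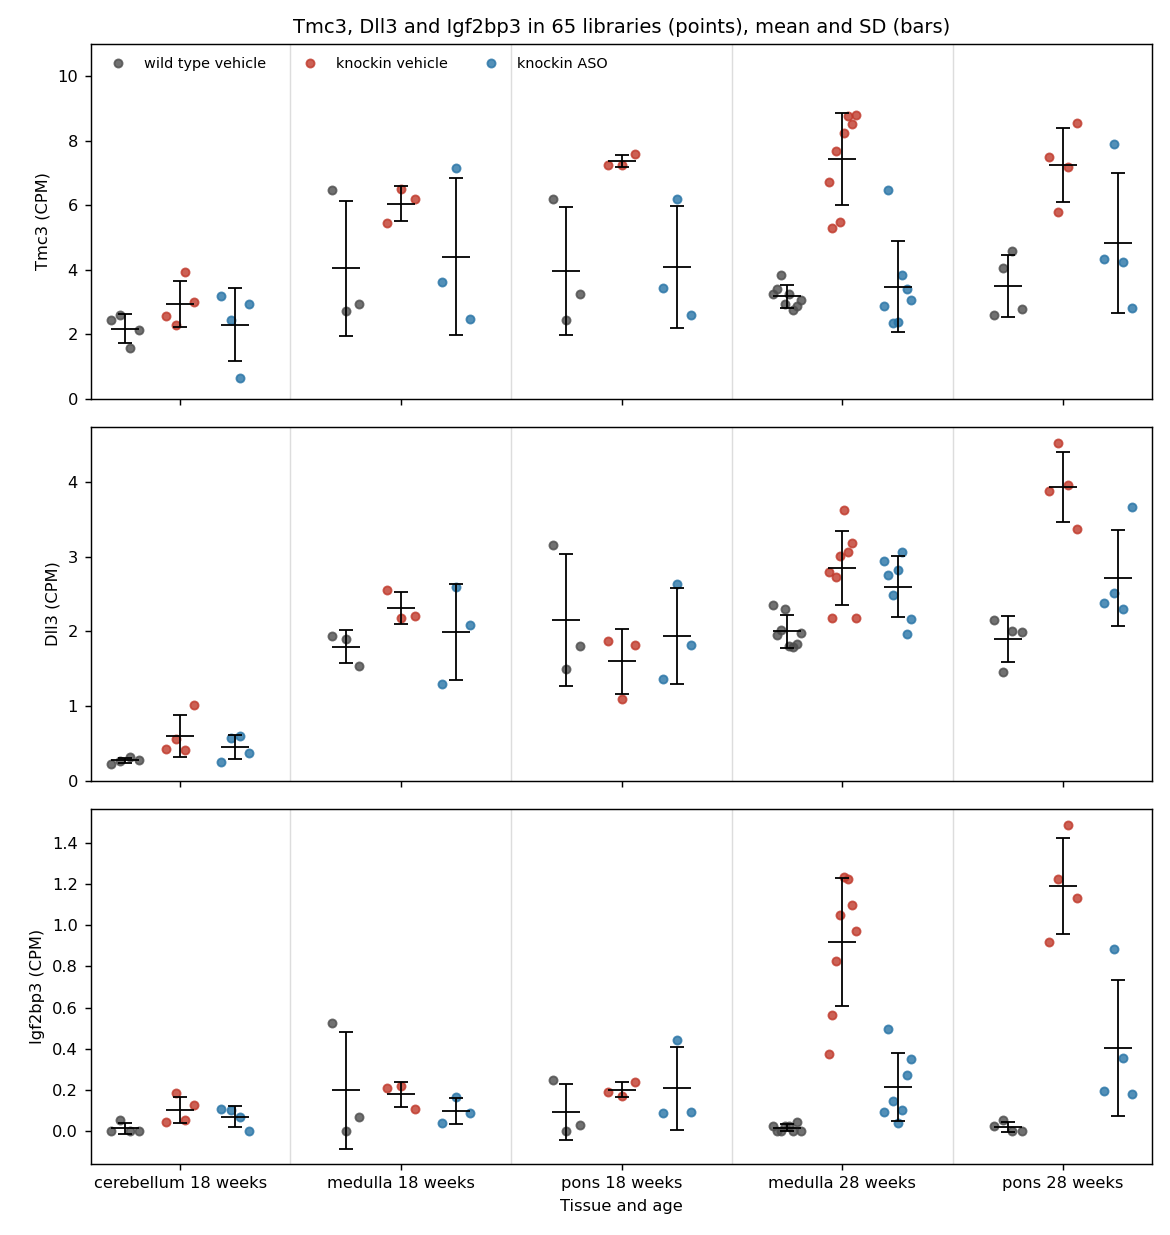
Level of Tmc3, Dll3 and Igf2bp3 in CPM (vertical axes) in 65 libraries (points) by tissue, age and group, with the mean and SD of each group as bars. Wild type and vehicle knockin points do not overlap for Tmc3 and Igf2bp3 in medulla and pons at 28 weeks, and replicate 1, the leftmost wild type point, stands high at 18 weeks in medulla and pons for Tmc3 and Igf2bp3.

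Per exon length, Dll3 was the most abundant of the 3 transcripts in medulla at 28 weeks and Igf2bp3 the least. In the wild type libraries there, the mean level was 0.702 RPKM (CPM per kilobase of exon) for Dll3, 0.351 for Tmc3 and 0.0018 for Igf2bp3. In vehicle knockin medulla it was 0.998 for Dll3, 0.824 for Tmc3 and 0.113 for Igf2bp3. All 3 are low for tissue RNA, and whether few cells hold much or many cells hold little cannot be told apart in whole tissue.

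In the same 2 contrasts, 19.3% of 20465 genes tested in medulla and 9.79% of 20458 in pons were called, that is, had a Benjamini-Hochberg adjusted p under 0.05 in edgeR's quasi-likelihood test, with 9.28% and 4.14% called higher in knockin and 9.99% and 5.65% called lower. At 18 weeks 0% of the genes were called in either region, with 1121 genes in medulla and 2414 in pons at an unadjusted p under 0.05, and DESeq2 called 14 in each.

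**Figure D2:**
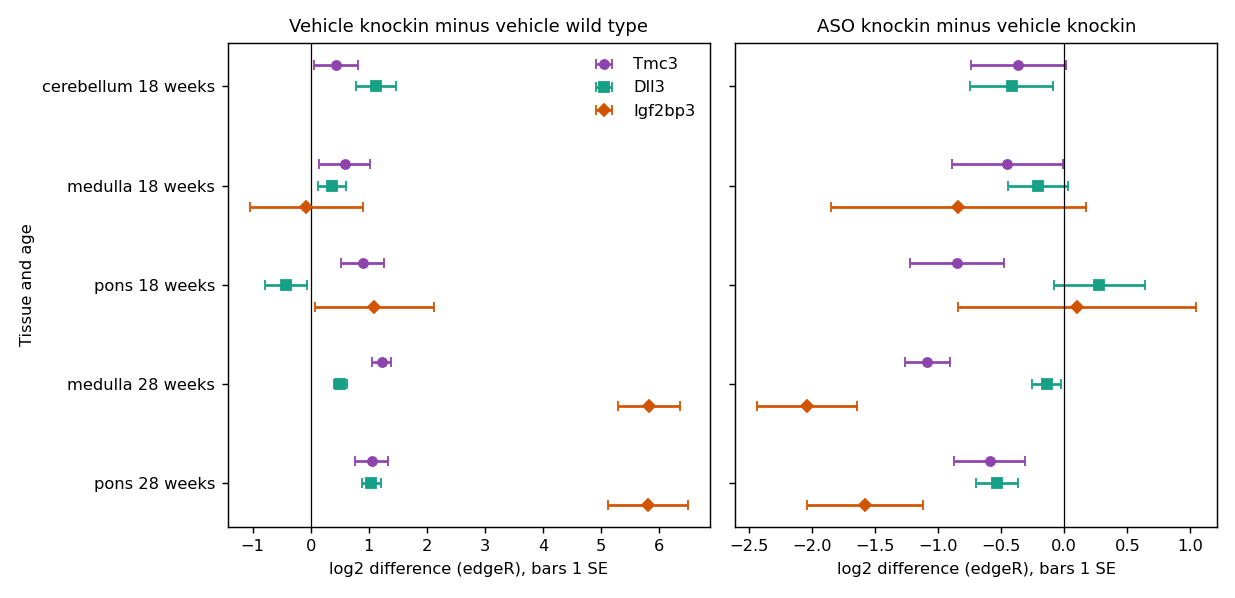
Log2 differences (edgeR estimate, bars 1 SE) of the 3 genes by tissue and age, on the left for vehicle knockin minus vehicle wild type and on the right for ASO minus vehicle knockin, with different horizontal scales. Igf2bp3 stands near 5.8 in both regions at 28 weeks on the left and at -2.04 in medulla and -1.58 in pons on the right, and was not fitted in cerebellum.

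The cerebellum asked whether the genes also differed in a tissue whose values played no part in their choice, though it shares header numbers with brainstem. None of the 3 was called there, where 2.71% of 20350 genes were and 0.654% were called higher in knockin. Tmc3 held 2.42, 2.58, 1.57 and 2.12 CPM in wild type and 2.57, 2.29, 3.91 and 3 CPM in vehicle knockin libraries. These ranges overlapped, with a log2 difference of 0.44 (95% confidence interval -0.38 to 1.25, adjusted p = 0.722 in edgeR's quasi-likelihood test).

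Dll3 in cerebellum was higher in all 4 knockin libraries than in any wild type library. Wild type libraries held 0.233, 0.269, 0.324 and 0.285 CPM and vehicle knockin libraries 0.432, 0.566, 0.416 and 1.01 CPM. The log2 difference was 1.12 (95% confidence interval 0.37 to 1.88), with an adjusted p of 0.127 in edgeR's quasi-likelihood test over all genes. The exact two-sided permutation test of the mean CPM gave p = 0.0286, the smallest that 4 against 4 libraries allow, and 0.129 adjusted over the 18 such tests made. DESeq2 called it at an adjusted p of 0.0475, edgeR called it at 0.0324 when the ASO libraries were left out of the fit, and it was called at 0.0391 without ASO replicate 3 alone.

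Igf2bp3 failed the filter on low counts in cerebellum. The 4 wild type libraries held 0, 4, 0 and 0 counts, or 0.0539 CPM in replicate 2, and the vehicle knockin libraries held 0.0455, 0.182, 0.052 and 0.125 CPM. Of the 4 knockin libraries 2 lay above the highest wild type library, and the exact two-sided permutation p was 0.0857, or 0.257 adjusted over the 18 tests.

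Levels of the wild type groups differed between tissues for Dll3. Its level in cerebellum was 6.67-fold lower than in medulla and 7.94-fold lower than in pons at 18 weeks (adjusted p = 2.0e-07 and 5.9e-08, edgeR), in comparisons that called 54% and 50.6% of all genes. All 4 cerebellar libraries lay below every wild type library of medulla and pons, and the call held when any single library was left out. For Tmc3 the cerebellum was 1.93-fold below medulla and 1.88-fold below pons and neither was called (adjusted p = 0.0589 and 0.0715, edgeR). In a fit of the wild type groups alone edgeR called both, at adjusted p values of 0.0392 and 0.0475, and without replicate 2 of medulla or of pons it called the respective one at 0.0432 and 0.0433. Without medulla wild type replicate 1 the log2 difference from medulla was -0.44 (adjusted p = 0.444, edgeR), and without pons wild type replicate 1 that from pons was -0.41 (adjusted p = 0.477, edgeR). Igf2bp3 was lower in cerebellum than in medulla at an adjusted p of 0.0169, which became 0.559 without medulla wild type replicate 1 (edgeR). Against pons it was not called (adjusted p = 0.101, edgeR), but it was at 0.0298 without cerebellum wild type replicate 2, which held its only counts there. Without pons wild type replicate 1, which held 17 of its counts, the log2 difference from pons was -0.12 (adjusted p = 0.965, edgeR). In medulla, wild type replicate 1, a library in doubt, held 26 of the 30 wild type counts of Igf2bp3. The filter on low counts in this joint fit also drew on the knockin libraries. The p-values of Igf2bp3 between tissues are thus not independent of the choice of the gene.

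None of the 3 genes was called between medulla and pons of wild type libraries at either age. At 28 weeks the log2 difference, medulla minus pons, was -0.09 for Tmc3 (95% confidence interval -0.55 to 0.37), 0.12 for Dll3 (-0.17 to 0.41) and -0.36 for Igf2bp3 (-2.56 to 1.83). These comparisons called 14.2% of genes at 28 weeks and 0.837% at 18 weeks. Medulla and pons libraries share header numbers, at 28 weeks in batch 1 of medulla. The fits treated them as separate, so these intervals leave out any pairing between the regions.

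By group mean, Tmc3 stood lowest in cerebellum, at 2.17, 2.29 and 2.94 CPM in wild type, ASO and vehicle knockin libraries. Wild type brainstem at 28 weeks and ASO medulla at 28 weeks came next, with 3.17 CPM in wild type medulla, 3.48 in ASO medulla and 3.51 in wild type pons, and the level was highest in vehicle knockin medulla and pons at 28 weeks and pons at 18 weeks, with 7.44, 7.25 and 7.37 CPM. Dll3 ran from 0.278 CPM in wild type cerebellum to 3.93 CPM in vehicle knockin pons at 28 weeks, beside 2.84 CPM in vehicle knockin medulla. The libraries of those knockin groups overlapped, with 3.36 to 4.52 CPM in pons and 2.18 to 3.62 CPM in medulla. The groups were scaled separately, and their difference was not tested. Igf2bp3 was lowest in wild type cerebellum, medulla and pons, with 0.0135, 0.0147 and 0.0192 CPM at 18, 28 and 28 weeks, and highest in vehicle knockin medulla and pons at 28 weeks with 0.918 and 1.19 CPM. The groups named together for Tmc3 or Igf2bp3 in these orders overlapped in their libraries.

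The ASO comparison set ASO against vehicle in knockin mice. The vehicle knockin libraries also served in choosing the genes, so the choice favours a lower level with ASO, and the comparison shares those libraries with the one above. In medulla at 28 weeks, where 1.69% of genes were called and 0.386% were called lower, 2 of the 3 genes were called and both were lower with ASO. That count is a description, since the vehicle values had a part in choosing the genes.

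Tmc3 in ASO medulla at 28 weeks ranged from 2.36 to 6.48 CPM with a median of 3.07, beside a median of 7.97 with vehicle. Of the 7 ASO libraries, 6 lay below every vehicle library and inside or below the wild type range of 2.75 to 3.85 CPM. The library that did not was ASO replicate 2, with 6.48 CPM, which also held the Atxn1 level of vehicle libraries. Tmc3 was 2.12-fold lower with ASO (log2 difference -1.08 ± 0.17, adjusted p = 0.00143, edgeR), and the exact two-sided permutation test within batches gave p = 0.00122, or 0.011 adjusted over 18 tests. Without ASO replicate 2 the difference was -1.32, and without the 4 libraries low in Hox genes it was -0.98 with an adjusted p of 0.0431. Within batch 1 alone it was -0.84 with an adjusted p of 0.41, and within batch 2 it was -1.32 with an adjusted p of 0.000303.

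Igf2bp3 in ASO medulla at 28 weeks held 0.036 to 0.496 CPM with a median of 0.145, against 0.373 to 1.23 CPM with vehicle. Of the 7 ASO libraries, 6 lay below every vehicle library, the exception again being replicate 2 at 0.496 CPM. The lowest ASO library was within the wild type range and the other 6 were above it. On the log2 scale it differed by -2.04 ± 0.40, or 4.1-fold lower (adjusted p = 0.00703, edgeR), and the exact two-sided permutation test within batches gave p = 0.000816, or 0.011 adjusted. Igf2bp3 passed the filter on low counts there through knockin libraries, with 31 to 108 counts with vehicle against at most 4 in any wild type library, so neither p is independent of the choice of the gene. The difference was -1.86 with an adjusted p of 0.407 in batch 1 alone and -2.22 with 0.0387 in batch 2. Leaving out the 4 libraries low in Hox genes gave -2.24 with an adjusted p of 0.0507.

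Dll3 did not follow. Its 7 ASO libraries in medulla at 28 weeks ranged from 1.96 to 3.07 CPM with a median of 2.75, beside 2.18 to 3.62 with vehicle. Of the ASO libraries 2 lay below all vehicle libraries and the others within their range, and the log2 difference was -0.14 (95% confidence interval -0.38 to 0.10, adjusted p = 0.718, edgeR). Whether the ASO difference of Dll3 differs from that of the other genes was not tested.

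In pons at 28 weeks, where 0.0929% of genes were called, 0.0831% higher and 0.00978% lower, none of the 3 genes was. Igf2bp3 held 0.194, 0.883, 0.352 and 0.18 CPM with ASO, all below the 4 vehicle libraries at 0.92 to 1.49 CPM. Its log2 difference was -1.58 (95% confidence interval -2.57 to -0.59, adjusted p = 0.153, edgeR), and the exact two-sided permutation p was 0.0286, the smallest possible, or 0.129 adjusted. DESeq2 called it at an adjusted p of 0.0357. Without ASO replicate 2, at 0.883 CPM, the difference was -2.28 and called at 0.00974 (edgeR). Igf2bp3 passed the filter on low counts in pons too through knockin libraries. It held 67 to 118 counts with vehicle, against at most 4 in any wild type library. None of these p-values is thus independent of the choice of the gene.

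Tmc3 in pons at 28 weeks held 4.33, 7.91, 4.25 and 2.82 CPM with ASO, so 3 of 4 libraries were below all vehicle libraries and replicate 2 was within their range. The log2 difference was -0.59 (95% confidence interval -1.20 to 0.02, adjusted p = 0.355, edgeR), and -0.92 without that library, with an adjusted p of 0.0629. Dll3 held 2.37, 2.52, 2.3 and 3.66 CPM with ASO, of which 3 lay below all vehicle libraries. Its log2 difference was -0.53 (95% confidence interval -0.89 to -0.18, adjusted p = 0.166, edgeR), with an exact two-sided permutation p of 0.0571.

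The ASO difference was also compared between the regions at 28 weeks with an interaction term. Medulla minus pons was -0.50 for Tmc3 (95% confidence interval -1.16 to 0.15), 0.39 for Dll3 (-0.02 to 0.80) and -0.47 for Igf2bp3 (-1.77 to 0.83) on the log2 scale. None was called, and 0% of all genes were. The pons libraries share header numbers with the medulla libraries of batch 1. The model treated them as separate, so these intervals leave out any pairing between the regions.

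At 18 weeks the ASO groups were spread widely by replicate 2. Tmc3 stood at 3.61, 7.14 and 2.47 CPM in ASO medulla and at 3.43, 6.2 and 2.59 CPM in ASO pons, and Igf2bp3 at 0.0373, 0.165 and 0.0856 CPM and 0.0887, 0.44 and 0.092 CPM. Replicate 2 was the highest ASO library in each of these 4 sets. Dll3 held 1.3, 2.59 and 2.08 CPM in ASO medulla and 1.36, 2.63 and 1.82 CPM in ASO pons, again with replicate 2 highest.

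None of the 3 genes was called with ASO at 18 weeks in medulla or pons, where 0% of genes were called, with 905 and 1246 genes at an unadjusted p under 0.05 and 3 and 14 called by DESeq2. Tmc3 in pons was the only one whose ASO and vehicle libraries did not overlap, with a log2 difference of -0.85 (95% confidence interval -1.67 to -0.03, adjusted p = 0.753, edgeR) and an exact two-sided permutation p of 0.1, the smallest that 3 against 3 libraries allow. Without the libraries labelled wild type replicate 3 and ASO replicate 2 the Tmc3 difference was -1.29 in pons and -0.98 in medulla, and neither was called.

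In cerebellum the ASO libraries held 3.17, 2.43, 0.653 and 2.92 CPM of Tmc3, 0.261, 0.571, 0.601 and 0.377 CPM of Dll3, and 0.109, 0.1, 0.0697 and 0 CPM of Igf2bp3. All 3 overlapped the vehicle knockin libraries. The log2 difference was -0.36 for Tmc3 (95% confidence interval -1.18 to 0.45) and -0.42 for Dll3 (-1.14 to 0.30), with adjusted p values of 0.713 and 0.671 in edgeR, where 0.0491% of genes were called.

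**Figure D3:**
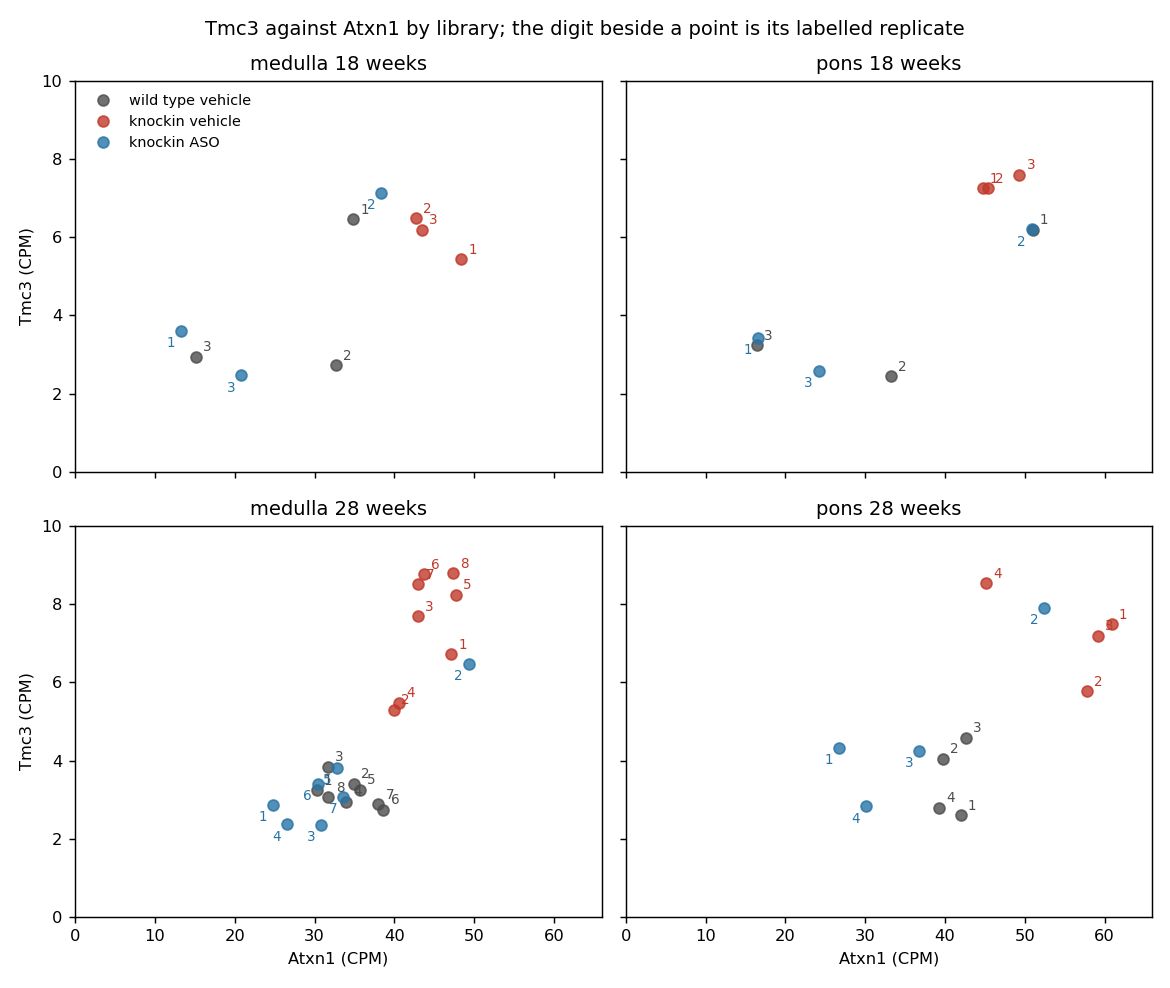
Tmc3 (vertical axis, CPM) against Atxn1 (horizontal axis, CPM) in each library of medulla and pons at 18 and 28 weeks, coloured by labelled group, with the labelled replicate beside each point. ASO replicate 2 lies beside the vehicle knockin points in all 4 panels, and at 18 weeks wild type replicate 1 does so in pons and holds 6.46 CPM of Tmc3 in medulla.

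Levels of the 3 genes were also correlated with Atxn1 across libraries under the same label, those in doubt included. After the mean of each group and batch was subtracted, the Pearson correlation over 65 libraries was 0.61 for Tmc3 with Atxn1 (Spearman 0.38). It was 0.39 for Igf2bp3 with Atxn1 (Spearman 0.30) and 0.32 for Dll3 with Atxn1 (Spearman 0.25). Among the 3 genes it was 0.46 for Tmc3 with Igf2bp3, 0.27 for Dll3 with Igf2bp3 and -0.03 for Tmc3 with Dll3. These values are a description. The genes share the depth of each library, libraries of different tissues in part share a header number, and the libraries in doubt are included.

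The genes most like each of the 3 were ranked among 13660 genes by Pearson correlation over the 65 libraries after subtracting the mean of each tissue, age and batch. For Tmc3 these were Chdh (0.89), which encodes the mitochondrial choline dehydrogenase, then Tcf12, Ddx17, Phactr4 and Zfp488 (0.80). Chdh was again first when each group mean was subtracted, with 0.84. Its log2 difference between vehicle knockin and wild type was 1.01 ± 0.11 in medulla and 0.90 ± 0.24 in pons at 28 weeks, and with ASO it was -0.72 ± 0.11 and -0.49 ± 0.24. These differences are a description. The first ranking kept the group differences and so favours genes that differ as Tmc3 does.

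For Igf2bp3 the genes close to it included Arsb (0.82), a lysosomal sulfatase, Zfp488, Polr2a and Spag6 (0.81). Zfp488, a zinc finger gene of the oligodendrocyte lineage, was thus close to both Tmc3 and Igf2bp3. For Dll3 they were Ccer2 (0.78), Tnnt2, Usp11, Zcchc18 and Gprasp2 (0.72). With group means subtracted, Tmem91 (0.75) led for Dll3.

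Of the other TMC family genes in vehicle-treated medulla at 28 weeks, Tmc6 was higher in knockin (11.8 to 16.6 CPM between the group means, log2 difference 0.48, adjusted p = 0.000376, edgeR) and Tmc7 was lower (-0.26, adjusted p = 0.00592). The other 4 measured members, Tmc1, Tmc4, Tmc5 and Tmc8, were not called, and Tmc2 was too low to test. In pons at 28 weeks Tmc7 was lower (-0.29, adjusted p = 0.0102, edgeR), and Tmc6 was not called, with a log2 difference of 0.28. In ASO medulla Tmc6 was lower than with vehicle by 0.46 on the log2 scale (adjusted p = 0.00703, edgeR), as Tmc3 was. The hair cell channel partners Cib2 and Ush1c were lower and Pcdh15 higher in knockin medulla, with log2 differences of -0.19, -0.97 and 0.44, and 0 of 7 partners were called in pons. The Ush1c call was lost in 8 of 33 refits.

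Of the other 8 Notch ligands, only Dll1, the canonical ligand of neural progenitors, was higher in knockin medulla at 28 weeks, by 0.37 on the log2 scale (7.62 to 9.89 CPM, adjusted p = 0.0141, edgeR). In pons its difference was 0.14 and not called, and Dlk1, a non-canonical ligand, was lower by 0.53 (adjusted p = 0.0207, edgeR). Jag1, Jag2, Dll4, Dlk2, Dner and Cntn1 were called in neither region. In cerebellum Dner, the ligand of Purkinje cells, was lower in knockin, from 744 to 475 CPM (log2 difference -0.65, adjusted p = 0.0074, edgeR).

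Notch targets were lower or not called in knockin brainstem at 28 weeks. In medulla 4 of 9 were lower and none was higher: Nrarp by 0.68, Hes5 by 0.43, Heyl by 0.39 and Hey1 by 0.34 on the log2 scale, beside 9.99% of all genes called lower. Nrarp, a feedback inhibitor of Notch, and Hey1 were also lower in pons, by 0.41 and 0.27, where 5.65% of all genes were called lower. The median over the 9 targets was -0.05 in medulla and -0.11 in pons, beside 0.01 over all genes tested in each. With ASO in medulla, Nrarp was higher by 0.49 and Hey1 by 0.23, and 7 targets were not called. Each of those 2 ASO calls was lost in 12 of 33 refits, and the Hes5 call in knockin medulla was lost in 8 of 33.

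Among 24 Notch receptors and signal genes in medulla, the glycosyltransferase gene Lfng was lower in knockin by 0.62 on the log2 scale (25.8 to 16.8 CPM, adjusted p = 2.4e-06, edgeR). Ncstn, Maml1 and Maml2 were higher by 0.12 to 0.18, and Lfng was higher with ASO by 0.41. The Maml1 call was lost in 14 of 33 refits and the Maml2 call in 12 of 33. In pons Numbl was higher by 0.25, a call lost in 12 of 18 refits. Notch4 and Neurl1a were lower there by 0.40 and 0.20, calls lost in 7 and 8 of 18 refits.

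Markers of glia and of several kinds of neuron differed between the same groups. Of all genes, 9.99% were called lower in knockin medulla and 5.65% in knockin pons at 28 weeks. Of 8 astrocyte markers, 6 were lower in knockin medulla and 4 in knockin pons at 28 weeks, and their summed level was 3176 to 4081 CPM across wild type medulla libraries, 1768 to 2620 CPM across vehicle knockin and 2044 to 3744 CPM across ASO libraries, with no marker at 0. In pons it was 2838 to 3049, 1744 to 2000 and 2073 to 3753 CPM. Of 8 oligodendrocyte markers, 5 were lower in medulla and 3 in pons, with summed levels of 17953 to 23704 CPM in wild type and 13005 to 18524 CPM in vehicle knockin medulla, and of 7 monoamine neuron markers 6 and 5. With ASO in medulla, 5 astrocyte and 3 oligodendrocyte markers were higher, beside 1.3% of all genes. In pons at 28 weeks 4 of the 5 motor neuron markers tested were lower, with summed levels of 78.8 to 113 CPM in wild type and 36.4 to 51.3 CPM in vehicle knockin libraries and at most 1 of the 6 listed markers at 0 in a library. Of 7 endothelial and mural markers 2 were lower in pons, with summed levels of 277 to 313 and 244 to 256 CPM, and of 8 general neuron markers 2 were lower, with 7462 to 7756 and 6738 to 7307 CPM. Of 7 oligodendrocyte precursor markers, 5 were lower in medulla and 1 in pons. Of 7 microglial markers 0 were called in medulla or pons at 28 weeks. Summed choroid plexus markers spread widely within groups at 28 weeks. They ran from 31.7 to 4492 CPM in wild type and from 126 to 24208 CPM in vehicle knockin medulla. In pons they ran from 29.9 to 1326 CPM and from 29.6 to 56.8 CPM. The part of these markers in the differences of Tmc3, Dll3, Igf2bp3 and the Notch genes was not tested.

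The other IGF2BP genes were not called. Igf2bp2 stood at 0.585 CPM in wild type and 0.741 CPM in vehicle knockin medulla at 28 weeks, a log2 difference of 0.34 that was not called, and Igf2bp1 was too low to test. In pons Igf2bp2 differed by 0.33 and was not called.

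Of the other 16 tested genes on a list of let-7 targets and oncofetal genes, 4 were higher in knockin medulla at 28 weeks. They were Ccnd2, a cyclin, by 0.90 (14.5 to 27.2 CPM, adjusted p = 9.2e-05, edgeR), Plag1 by 0.49, Lin28b, which blocks maturation of let-7, by 0.41, and Plagl2 by 0.23. In pons Ccnd2, Lin28b and Plagl2 were higher, by 0.76, 0.33 and 0.27, and E2f5 was lower by 0.30. Of all genes tested, 9.28% were called higher in knockin medulla, and in knockin pons 4.14% were called higher and 5.65% lower. The Lin28b and Plagl2 calls in pons were each lost in 6 of 18 refits. Igf2, whose messenger RNA gave Igf2bp3 its name and which is named here after its values were seen, was not called in either region, with log2 differences of 0.61 ± 0.53 and 0.02 ± 0.42. With ASO in medulla Ccnd2 was lower by 0.55 with an adjusted p of 0.0492 in edgeR, a call lost in 27 of 33 refits. In cerebellum H19 was lower in knockin by 0.85, a call lost in 9 of 18 refits.

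Of 15 genes of the m6A machinery, whose mark Igf2bp3 reads, Ythdf3 and Virma were higher in knockin medulla by 0.21 and 0.13 on the log2 scale, and none was called in pons. With 19.3% and 9.79% of all genes called in these contrasts, the shares in these lists are a description.

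**Figure D4:**
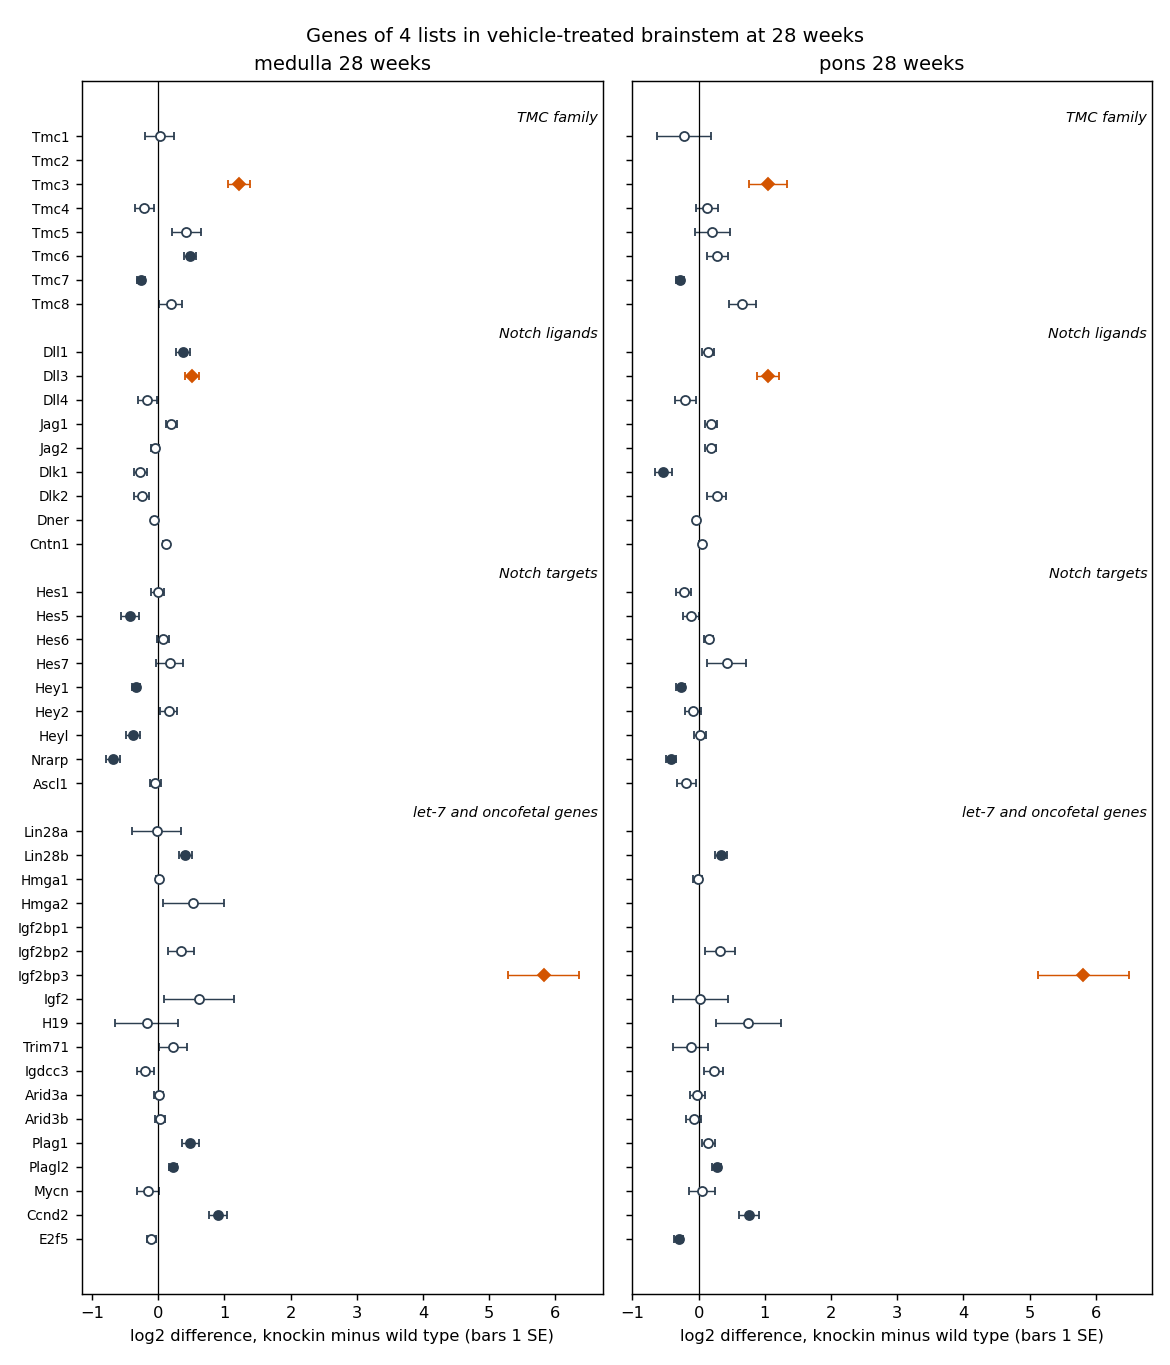
Log2 difference between vehicle knockin and wild type (horizontal axis, edgeR estimate, bars 1 SE) of each gene of 4 lists in medulla (left) and pons (right) at 28 weeks; filled circles mark called genes, open circles genes not called, orange diamonds Tmc3, Dll3 and Igf2bp3, and no symbol a gene too low to test. Igf2bp3 stands at 5.82 and 5.81, and the genes of the lists other than Tmc3, Dll3 and Igf2bp3 lie between -0.68 and 0.90 in medulla.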

How the data were processed

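The deposited file holds raw whole-number read counts per gene in 65 columns. Per the submitters' processing notes, CASAVA 1.8, HISAT2 2.0.2 and featureCounts were used with the GRCm38 build; pair and strand settings are not given in the sources used here. Symbols, exon lengths and positions came from GENCODE vM21.

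Each tissue and age was fitted on its own, with its 3 groups in 1 edgeR 4.0.16 model (TMM scaling, filterByExpr at a minimum count of 10, robust quasi-likelihood) and a batch term in medulla at 28 weeks. P-values were adjusted by Benjamini-Hochberg over all genes tested, and a gene was called under 0.05. CPM used TMM-scaled library sizes. Tissue levels and the interaction were fitted in joint models. Exact permutation tests compared mean CPM. DESeq2 1.42.0 was an alternative. The fits were tested on simulated data. Equal replicate numbers did not pair libraries: correlations of their deviations from group means ranged from -0.28 to 0.23.

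The 3 genes and all lists were chosen with earlier results of these data known. Any TMC, Notch ligand or IGF2BP gene may be named, at most 4 called genes of smallest adjusted p from each other list, and the 5 genes most like each member, of which 1 is not reported here.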

Additional observations from a re-analysis of the deposited data

Results flagged for a closer look

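In 9 groups of 4 to 10 libraries, 27 sets of values were tested with Dixon's criterion for a library far from its group, of which chance alone marks about 1 in 20. It marked 3. Tmc3 in medulla at 28 weeks stood at 6.48 CPM in ASO replicate 2, with the next highest ASO library at 3.82. Dll3 in pons at 28 weeks stood at 3.66 CPM in ASO replicate 4, with the next at 2.52. Igf2bp3 in cerebellum stood at 0.0539 CPM, or 4 counts, in wild type replicate 2, with the other 3 libraries at 0. With those 3 at 0 any count in the remaining library is marked, so nothing is drawn from this mark.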

How the results depend on the processing

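Of 162 refits of the tested results of Tmc3, Dll3 and Igf2bp3 under other settings, 149 kept direction and side of the threshold, as did 384 of 402 refits that left out 1 library. The changed ones follow, as log2 differences, and the cause was not tested. For ASO in medulla at 28 weeks, batch 1 alone gave -0.84 for Tmc3, -1.86 for Igf2bp3 and 0.040 for Dll3, and leaving out the 4 libraries low in Hox genes gave -2.24 for Igf2bp3. The knockin difference of Tmc3 there was 0.90 in batch 1 and 1.52 in batch 2. DESeq2 gave 1.12 for Dll3 in knockin cerebellum and -1.56 for Igf2bp3 with ASO in pons at 28 weeks, and both were called. The fit of only the 2 groups gave 1.13 for Dll3 in cerebellum. Without the libraries labelled wild type 3 and ASO 2, the ASO difference in pons at 18 weeks was -0.011 for Dll3 and -1.13 for Igf2bp3. Wild type groups alone gave -0.95 and -0.91 for Tmc3 in cerebellum against medulla and pons, and a block on the header number gave 0.016 for Tmc3 in medulla against pons at 28 weeks.

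Equal replicate numbers did not pair the libraries. With a replicate block the ASO difference of Igf2bp3 in pons at 18 weeks was -0.033, and the genes called were 4 (ASO, cerebellum), 8 (ASO, pons at 28 weeks) and 303 (knockin, cerebellum), and no other call on the 3 genes changed.

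Leaving out 1 library at a time gave these ranges. With ASO, Dll3 ranged from -0.44 to 0.016 in medulla and from -0.012 to 0.47 in pons at 18 weeks, and Igf2bp3 from -1.13 to 0.44 in pons at 18 weeks, from -2.28 to -1.32 in pons and from -2.51 to -1.86 in medulla at 28 weeks. The Igf2bp3 interaction ranged from -0.93 to 0.23. In knockin against wild type, Dll3 ranged from 0.76 to 1.26 in cerebellum, Tmc3 from 0.37 to 1.09 in medulla at 18 weeks, and Igf2bp3 from -0.67 to 2.37 in medulla and 0.53 to 3.61 in pons at 18 weeks and from 5.42 to 6.83 in pons at 28 weeks. Between wild type cerebellum and medulla, Igf2bp3 ranged from -6.86 to -1.23 and Tmc3 from -1.15 to -0.44, and between cerebellum and pons from -5.83 to -0.12 and from -1.15 to -0.41. Between wild type medulla and pons at 18 weeks the ranges were -0.45 to 0.14 for Dll3, -1.43 to 3.57 for Igf2bp3 and -0.46 to 0.53 for Tmc3, and at 28 weeks -0.77 to 0.69 for Igf2bp3 and -0.21 to 0.068 for Tmc3.

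The number of genes called depended on the setting more. For ASO in cerebellum it was 10, but 231 with DESeq2, 2 with only the 2 groups, and 4 to 124 without 1 library. For ASO in medulla at 28 weeks it was 346, but 0 in batch 1, 222 in batch 2, 623 with DESeq2, 162 with only the 2 groups, 138 without the libraries low in Hox genes and 191 to 611 without 1 library. For ASO in pons at 28 weeks it was 19, but 615 with DESeq2, 76 with no filter, 3 with only the 2 groups and 4 to 299 without 1 library. At 18 weeks it was 0 for ASO, but 3 in medulla and 14 in pons with DESeq2, 1 in each with no filter, and in medulla 1 with only the 2 groups, 9 without the libraries labelled wild type 3 and ASO 2, and 0 to 1 without 1 library. For knockin against wild type it was 552 in cerebellum, but 1294 with DESeq2, 3161 with only the 2 groups and 277 to 2914 without 1 library. It was 0 in medulla and pons at 18 weeks, but 14 in each with DESeq2. In medulla at 28 weeks it was 3944, but 644 in batch 1, and in pons 2002, but 3010 with DESeq2 and 831 to 4259 without 1 library.

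Of 39 calls on other genes of the lists, 17 were lost in some refit without 1 library, 20 (all in medulla) in batch 1 alone, 11 with the replicate block and 0 with DESeq2, and 8 were kept throughout. With 3 to 8 libraries a group and under 0.1 CPM of Igf2bp3 in most wild type libraries, the size of its difference rests on a few counts.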
